A study of Caenorhabditis elegans with 34 samples.

Results

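Red autofluorescence is a natural glow of ageing Caenorhabditis elegans that needs no reporter gene, and animals sorted by it are described here through their messenger RNA. The animals carried the temperature-sensitive sterile mutation spe-9(hc88), in strain BA671, and no GFP reporter. They were grown at 25 °C on E. coli OP50 and sorted on day 5 in a microfluidic device. Low animals were the dimmest 10% of a sorted population and are predicted to be long-lived, and high animals were the brightest 10% and are predicted to be short-lived. Each of 3 sorts gave 1 library from pooled low animals and 1 from pooled high animals, 6 of the 34 libraries of the study. The other 28 libraries come from strains with a GFP reporter and serve only as a comparison at the end. The question was which transcripts differ between animals of 1 age and 1 genotype that differ in this signal.

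Red autofluorescence in worms comes from material that builds up with age and, in the sorted animals, was seen in the intestine and the uterus. The intestine holds gut granules, which are lysosome-related organelles with their own fluorescence, and it makes the yolk that is passed to the oocytes. An animal sterile through spe-9 still makes oocytes and sperm, but the sperm cannot fertilise. Whole pooled animals were sequenced, so fewer cells of a type and less RNA per cell cannot be told apart in anything below.

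Total counts averaged 21.7 ± 3.05 M (M, mega) in low animals and 19.4 ± 3.26 M in high animals (SD, n = 3 each). At least 5 counts were found for 15416 to 16279 features in low animals and for 15614 to 16418 in high animals. The 10 most abundant genes took 5.27 to 7.39% of counts in low animals and 3.31 to 4.10% in high animals. No reporter was present, and the gfp row held 16, 10 and 8 counts in low animals of sorts 1 to 3, against 1, 1 and 0 in high animals. Values below are given in the order of sorts 1, 2 and 3, as CPM, counts relative to a library total that was corrected by TMM scaling (trimmed mean of M values). The mutated gene cannot check the labels, since all animals carry it, and spe-9 had 0.590, 0.796 and 0.526 CPM in low animals, against 0.418, 0.602 and 0.421 CPM in high animals, a difference that did not pass the test. Each replicate is a separate sort. The first principal component, of counts after the variance-stabilising transformation of DESeq2, held 79.3% of the variance. It had low animals at -48.5, -61.6 and -42.6 and high animals at 33.4, 47.6 and 71.8.

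Low and high animals differed in a large part of the genes that could be tested. A gene is called when its edgeR quasi-likelihood p, adjusted by Benjamini-Hochberg over all 14736 genes tested, is under 0.05, with the sort as a block, and a log2 difference is always low over high. Of these genes, 7943 were called (53.9%, or 59.2% at an unadjusted p under 0.05), 4088 of them higher (27.7%) and 3855 lower (26.2%) in low animals. The median log2 difference over all genes tested was 0.00, so a list is read below against a median near 0 and against these shares. Called genes had a median of 0.81 when higher and -1.04 when lower. More called genes were under -1 (2015) than over 1 (1506), whereas more were over 3 (96) than under -3 (19). The same direction was seen in 3 of 3 sorts for 7924 of the called genes. Low and high libraries did not overlap in 62.9% of all genes tested (low above high in 32.6%, low below high in 30.4%), so a gene without overlap was common. Exons of 2507 called genes overlap those of another gene, and how such reads were counted is not given in the sources used here. Among the genes named for the low against high difference such an overlap is found in glo-3, mrp-4, wht-2, apb-3, blos-1, vps-33.1, vps-41, asp-2, lipl-3, lipl-4, unc-32, epg-2, vit-2, vit-3, vit-4, cpg-8, him-14, his-24, psf-1, atp-1, crt-1, sip-1, acox-1.4, smk-1, daf-16, cyp-34A2, hrg-7, ctl-2, clec-266, clec-87, btb-16, act-1 and spe-9. At an adjusted p under 0.0001, the threshold of the study, 555 genes were called (3.77%), 123 higher (0.835%) and 432 lower (2.93%), and without the sort as a block 0 genes were called at that threshold, while 8629 had an unadjusted p under 0.05 in that fit.

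Genes named here were the largest differences among called genes with a mean of at least 5 CPM, no overlap between groups, 1 direction in 3 of 3 sorts and no exon overlap. The 10 largest increases were F56D6.8, C30G12.2, T22B7.7, dct-8, F15E6.3, F48C1.9, col-140, drd-50, col-119 and sysm-1. F56D6.8 had 12.7, 13.3 and 5.13 CPM in low animals, against 0.313, 0.301 and 0.126 CPM in high animals, and its log2 difference was 5.35 ± 0.28 (SE, edgeR adjusted p = 2.90e-05). It lies on chromosome IV, 3894058 to 3894430 (WBcel235), close to dct-8 on chromosome IV, 3895070 to 3895506, a gene named for control by the transcription factor DAF-16. dct-8 had 16.36, 16.3 and 5.13 CPM in low animals, against 0.783, 0.181 and 0.295 CPM in high animals, a difference of 4.80 ± 0.38 (SE, edgeR adjusted p = 6.46e-05). The low library of sort 3 was the lowest of its group in both genes, yet far above all high libraries. C30G12.2 had 33.5, 42.1 and 26.8 CPM in low animals, against 1.83, 1.02 and 0.295 CPM in high animals, with a difference of 5.12 ± 0.35 (SE, edgeR adjusted p = 3.85e-05). sysm-1 had 98.1, 131 and 91.8 CPM in low animals, against 17.3, 5.06 and 3.87 CPM in high animals, a difference of 3.85 ± 0.41 (SE, edgeR adjusted p = 2.04e-04). High animals of sort 1 were the highest of their group in both. The cuticle collagens col-140 and col-119 stood out in another way, since they were nearly absent from 2 of 3 high libraries. col-140 had 99.6, 129.8 and 129 CPM in low animals, against 89.6, 2.89 and 0.757 CPM in high animals, and col-119 had 100.5, 135 and 138 CPM in low animals, against 82.5, 3.55 and 1.30 CPM in high animals. The high library of sort 1 was close to the low libraries in both, and their calls (log2 4.01 and 3.88) were lost without the sort as a block, with edgeR adjusted p = 0.211 and 0.155, and without either library of sort 2 or of sort 3 (adjusted p up to 0.152).

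The 10 largest decreases were F47B8.10, T10C6.15, ins-2, plep-1, cbn-1, Y46H3A.5, pitr-4, M01D1.12, C54F6.18 and tbb-4. The insulin-like peptide gene ins-2 (chromosome II, 5988524 to 5989426) had 9.32, 4.38 and 9.12 CPM in low animals, against 71.1, 68.1 and 107 CPM in high animals, and its log2 difference was -3.45 ± 0.19 (SE, edgeR adjusted p = 2.94e-05). The tubulin gene tbb-4, known from ciliated sensory neurons, had 15.01, 8.98 and 16.8 CPM in low animals, against 80.9, 90.9 and 152 CPM in high animals, a difference of -2.98 ± 0.18 (SE, edgeR adjusted p = 3.16e-05). plep-1 had 1.48, 1.59 and 1.71 CPM in low animals, against 13.1, 18.2 and 17.5 CPM in high animals, a difference of -3.33 ± 0.20 (SE, edgeR adjusted p = 3.16e-05). All high libraries exceeded all low libraries in these 3 genes by a wide margin. F47B8.10 had 5.10, 2.10 and 0.745 CPM in low animals, against 28.1, 49.3 and 16.45 CPM in high animals, a difference of -3.67 ± 0.40 (SE, edgeR adjusted p = 2.32e-04). Relative to its mean, each group spread more in F47B8.10 than in ins-2, tbb-4 and plep-1.

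**Figure D1:**
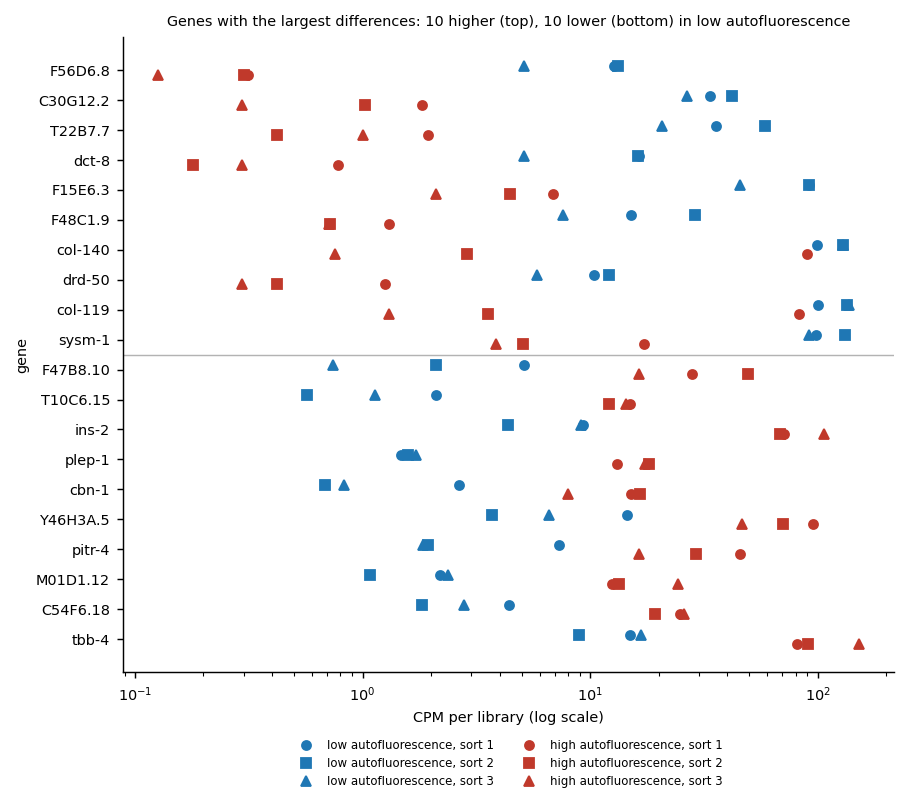
CPM per library on a log axis for the 10 genes with the largest increase (above the line) and the 10 with the largest decrease (below it) in low against high animals; each point is 1 library. Low and high libraries do not overlap for any gene because the genes were selected for this, and the high library of sort 1 is near the low libraries only for col-140 and col-119.

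Genes that build gut granules were a mixture. Of the 27 genes in the list, 9 were higher, 3 were lower and 15 were not called, with a median log2 difference of 0.20. The small GTPase glo-1, which the granules need in order to form, had 2.36, 2.22 and 2.10 CPM in low animals, against 0.992, 0.904 and 0.463 CPM in high animals, a difference of 1.55 ± 0.34 (SE, edgeR adjusted p = 0.0062). Another increase was that of mrp-4, a transporter of the ABC family. mrp-4 had 321, 359.9 and 333 CPM in low animals, against 166, 167 and 97.4 CPM in high animals, a difference of 1.27 ± 0.15 (SE, edgeR adjusted p = 3.65e-04). The 2 sets of libraries did not overlap in either gene, and high 3 was the lowest library in both. The transporter wht-2 (0.76) and the BLOC-1 complex genes snpn-1 (0.64), blos-4 (0.68), blos-1 (0.38) and mutd-1 (0.46) were called higher. So were the vacuolar tethering genes vps-33.1 (0.36) and vps-18 (0.27). The decreases were in apm-3 (-0.84) and apb-3 (-0.60), subunits of the AP-3 adaptor, and in the tethering gene vps-41 (-0.41). Values for the exchange factor glo-4 (0.23), for glo-3 (-0.38) and for the zinc transporter cdf-2 (0.15) did not pass the test. Without the high or the low library of sort 2 the count of increases fell to 5, and the calls of blos-1, mutd-1, vps-18, vps-33.1 and vps-41 were lost. The calls of blos-1 and mutd-1 were also lost without either library of sort 3, that of vps-18 whichever library was left out, and those of blos-1 and vps-18 in DESeq2, with library totals and without a filter on low counts. With the size factors of DESeq2 in place of TMM, vps-18 was not called either (edgeR adjusted p = 0.0569).

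Lysosomal hydrolases were far more one-sided than the granule genes. Of 28 cathepsins, the proteases of the lysosome, 21 were tested and 20 were called higher and 0 lower, with a median of 1.91. Their summed level was 4714, 4828 and 5366 CPM in low animals, against 2130.1, 1598 and 951 CPM in high animals. The aspartyl protease asp-6 had 744, 719 and 652 CPM in low animals, against 377, 197 and 109 CPM in high animals, a difference of 1.81 ± 0.26 (SE, edgeR adjusted p = 8.05e-04). The cathepsin L gene cpl-1 had 617, 671 and 612 CPM in low animals, against 340.2, 375 and 172 CPM in high animals, a difference of 1.17 ± 0.19 (SE, edgeR adjusted p = 0.00143). Low libraries were close to each other in both genes, whereas high libraries spread widely and the one of sort 3 was the lowest. The cathepsin B-like gene cpr-1 (2.75) and asp-2 (3.40, an exon overlap makes its counts less certain) were also higher.

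Among the lysosomal lipases, which free fatty acids inside lysosomes, 5 of the 7 tested were higher and 2 were lower. The largest difference was in lipl-4, a lipase known to lengthen life when overexpressed in worms. It had 1.90, 1.82 and 2.15 CPM in low animals, against 0.261, 0.301 and 0.0421 CPM in high animals, a difference of 3.35 ± 0.55 (SE, edgeR adjusted p = 0.00146), at levels where 3 counts correspond to 0.127 to 0.165 CPM in low animals and to 0.131 to 0.183 CPM in high animals. High 3 was under that floor for lipl-4, so the size of its difference is uncertain. lipl-5 had 105, 170.4 and 169 CPM in low animals, against 47.6, 53.98 and 25.0 CPM in high animals, a difference of 1.84 ± 0.26 (SE, edgeR adjusted p = 7.74e-04). The increases in lipl-1 (1.99), lipl-2 (2.80) and lipl-3 (2.79) were large as well, and low and high libraries overlapped in none of the 5. The exception was lipl-7, with 30.5, 23.6 and 32.1 CPM in low animals, against 48.5, 66.8 and 71.6 CPM in high animals, a difference of -1.11 ± 0.16 (SE, edgeR adjusted p = 7.81e-04). The other decrease, in lipl-6 (-1.25), was lost whichever of the 6 libraries was left out (edgeR adjusted p up to 0.146). The remaining member, lipl-8, was not tested because its counts were too low.

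Lysozymes digest bacterial walls and are made mostly in the intestine, and 9 of the 13 tested were higher while 1 was lower (median 1.78; 16 members in all). lys-7 had 1489.6, 1637 and 1295 CPM in low animals, against 291, 247 and 154 CPM in high animals, a difference of 2.72 ± 0.15 (SE, edgeR adjusted p = 2.94e-05). ilys-5 had 162, 198 and 186 CPM in low animals, against 27.7, 12.8 and 5.05 CPM in high animals, a difference of 3.84 ± 0.43 (SE, edgeR adjusted p = 2.64e-04). In each, the low libraries agreed closely and lay far above all high libraries. The member that went the other way was lys-3. It had 7.17, 4.49 and 6.66 CPM in low animals, against 34.2, 34.5 and 55.3 CPM in high animals, a difference of -2.74 ± 0.19 (SE, edgeR adjusted p = 3.85e-05), again without overlap.

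The proton pump that acidifies lysosomes and the autophagy machinery that feeds them did not follow the hydrolases. Of 21 V-ATPase genes, 6 were higher and 7 lower, a split near that of all genes, with a median of -0.09. The intestinal subunit vha-6 had 81.9, 74.3 and 80.2 CPM in low animals, against 35.04, 22.2 and 14.5 CPM in high animals, a difference of 1.81 ± 0.21 (SE, edgeR adjusted p = 3.22e-04), and it was also one of the intestinal markers. The subunits vha-15 (-0.74) and unc-32 (-0.50) were lower. The count of decreases fell to 4 without either library of sort 2 or of sort 3. Of 28 autophagy genes, 19 were lower and 3 higher, with a median of -0.60. The cargo receptor sqst-1 had 202, 135 and 191 CPM in low animals, against 483, 414 and 604 CPM in high animals, a difference of -1.51 ± 0.11 (SE, edgeR adjusted p = 4.49e-05). The ubiquitin-like protein gene lgg-1, which coats autophagosomes, had 639, 580.3 and 668 CPM in low animals, against 929, 941 and 1200.2 CPM in high animals, a difference of -0.69 ± 0.11 (SE, edgeR adjusted p = 0.00103). Every high library exceeded every low library in both, as it did in the adaptor gene epg-2 (-1.31). The largest increase was that of lgg-3 (0.51), which encodes the other ubiquitin-like conjugate of the pathway.

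The kynurenine pathway breaks down tryptophan and, in worms, yields the anthranilate that glows blue at death. Of 11 members, 10 were tested, of which 4 were higher and 2 lower (median 0.29). The first enzyme, the tryptophan dioxygenase tdo-2, had 35.8, 28.9 and 37.5 CPM in low animals, against 15.5, 12.3 and 13.3 CPM in high animals, a difference of 1.32 ± 0.13 (SE, edgeR adjusted p = 1.64e-04). The hydroxyanthranilate dioxygenase gene haao-1 (1.12) and umps-1 (0.78) were higher too. The kynurenine monooxygenase gene kmo-2 had 2.32, 2.05 and 1.75 CPM in low animals, against 6.74, 7.47 and 11.1 CPM in high animals, a difference of -2.02 ± 0.27 (SE, edgeR adjusted p = 5.94e-04), without overlap. Its relative kmo-1 overlapped between the groups (log2 0.11, not called), and the decarboxylase gene acsd-1 (-1.77) was lower. The call of the kynureninase kynu-1 (0.46) was lost without either library of sort 1 or of sort 2, or without the block (adjusted p up to 0.187 in these edgeR fits).

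**Figure D2:**
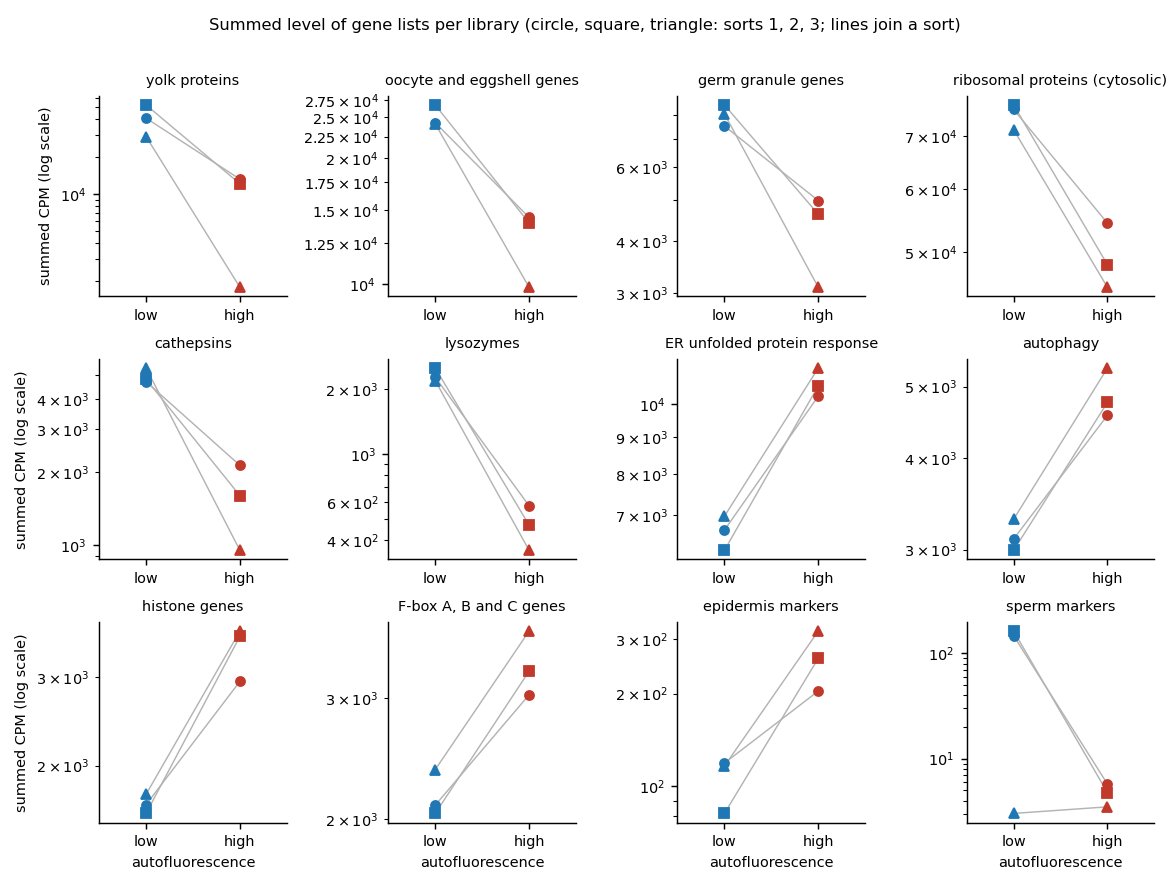
Summed CPM of 12 gene lists per library on log axes that differ between panels, with low animals on the left, high animals on the right and a line for each sort; axes do not start at 0. Yolk, cathepsin, lysozyme, germline and ribosomal sums are higher in every low library, ER, autophagy, histone, F-box and epidermal sums are lower, and the sperm marker sum is high in the low libraries of sorts 1 and 2 only.

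Yolk proteins are made in the intestine and taken up by oocytes, and their transcripts were higher in low animals in every sort. The 6 vitellogenin genes summed to 40942, 52290.3 and 29058 CPM in low animals, against 13158, 12074 and 1762 CPM in high animals. Every low library was above every high library, and the high library of sort 3 held far less than the other high libraries. All 6 genes were called higher, with a median of 3.11. vit-2 had 13891, 19555 and 10800.3 CPM in low animals, against 5229.8, 6802 and 1130.2 CPM in high animals, a difference of 2.05 ± 0.35 (SE, edgeR adjusted p = 0.00181). vit-6 had 10899.5, 15134 and 7018 CPM in low animals, against 2818, 2829 and 315 CPM in high animals, a difference of 2.92 ± 0.45 (SE, edgeR adjusted p = 0.00113). Similar values were found for vit-5 (3.18). vit-3 had 1117, 1505 and 881 CPM in low animals, against 739, 83.6 and 9.97 CPM in high animals, a difference of 3.81 ± 1.05 (SE, edgeR adjusted p = 0.0165). In vit-3, as in vit-1 (3.04) and vit-4 (3.38), high animals of sort 1 were nearly at the level of low animals, and high animals of sort 3 were far below it. These calls were lost without the sort as a block (edgeR adjusted p = 0.157 in vit-3, 0.191 in vit-1 and 0.134 in vit-4) and without either library of sort 2, which left 3 of 6. The genes vit-3, vit-4 and vit-5 are near copies of each other, so their reads may have been divided among them.

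**Figure D3:**
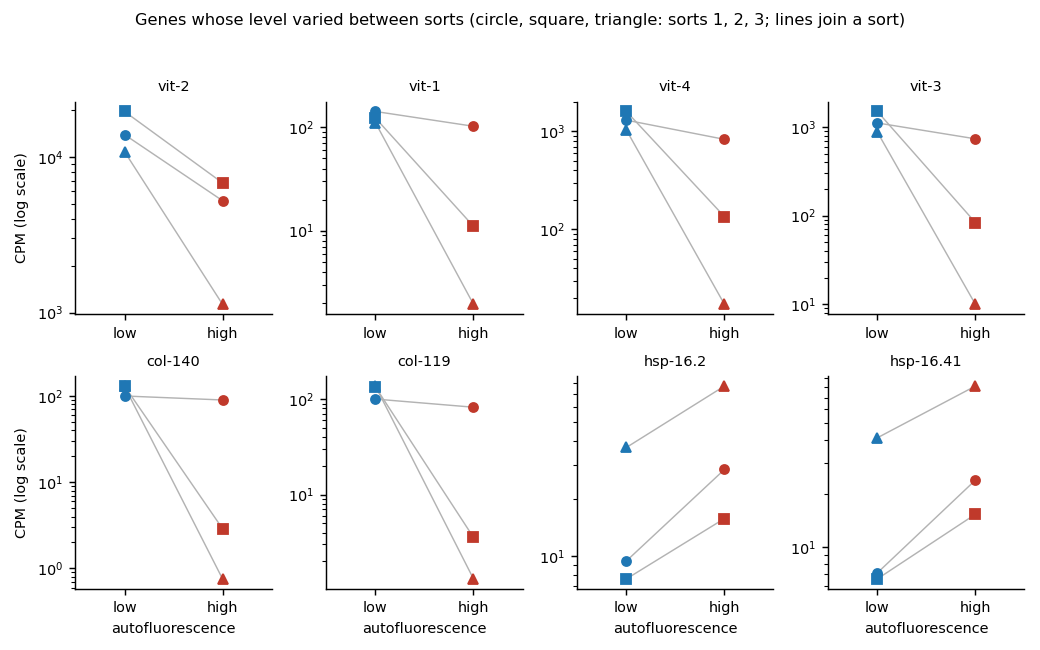
CPM on log axes, which do not start at 0, for 8 genes whose level varied between sorts, with low animals on the left, high animals on the right and a line for each sort. In vit-1, vit-3, vit-4, col-140 and col-119 the high library of sort 1 lies near the low libraries, and in hsp-16.2 and hsp-16.41, chosen after their values were seen, both libraries of sort 3 lie above the others.

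Oocyte and germline genes were higher in low animals almost throughout. Of 36 oocyte and eggshell genes, 33 were higher and 2 lower (median 1.02), and their sum was 24290.4, 26782 and 24129.8 CPM in low animals, against 14424, 13990.4 and 9819 CPM in high animals. The eggshell proteoglycan gene cpg-2 had 2818, 3049.8 and 2929.6 CPM in low animals, against 1501, 1405 and 943 CPM in high animals, a difference of 1.22 ± 0.16 (SE, edgeR adjusted p = 4.81e-04). The vitelline layer gene cbd-1 had 2047, 2530.5 and 2055 CPM in low animals, against 1115, 1157 and 419 CPM in high animals, a difference of 1.43 ± 0.25 (SE, edgeR adjusted p = 0.00204). The 2 groups did not overlap, and high 3 was again the lowest library. The yolk receptor rme-2 of the oocyte (1.35) and perm-4 (1.32) of the permeability barrier were higher, whereas cpg-8 (-0.63) was lower. Germ granule genes were called higher in 21 of 26 and lower in 0 (median 0.93), among them the Argonautes wago-1 (1.12) and wago-4 (1.40) and the RNA helicase cgh-1 (1.31). Meiotic genes were called higher in 39 of 49 and lower in 2 (median 0.79). The largest meiotic increase was in him-14 (1.27), needed for crossing over, and the largest decrease in htz-1, the histone variant H2A.Z (-0.91). Without either library of sort 2 the decreases numbered 1 in the oocyte and 1 in the meiotic list, and without either of sort 1 they numbered 1 in the oocyte list.

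Sperm markers moved with these germline lists, but only in 2 of the 3 sorts. The 35 sperm markers, which include the major sperm proteins, summed to 147, 162 and 3.02 CPM in low animals, against 5.74, 4.76 and 3.49 CPM in high animals. Low animals of sorts 1 and 2 thus stood apart from the other 4 libraries. Only 4 of these markers passed the filter on low counts, and msp-79, the only major sperm protein gene called, had 5.57, 6.14 and 0.307 CPM in low animals, against 0.731, 0.241 and 0.252 CPM in high animals, a difference of 2.96 ± 0.61 (SE, edgeR adjusted p = 0.00449). In the wider list of 86 sperm genes, 12 of the 30 tested were higher and 2 lower, and 53 were higher when no filter on low counts was applied. This wider list summed to 448, 489 and 267 CPM in low animals, against 198, 187 and 177 CPM in high animals. Its sums were thus higher in low animals in every sort, without overlap. The largest increase was in ssp-10 (3.53), a major sperm protein relative, and the largest decrease in ssp-36 (-1.77), whose call was lost without the block (edgeR adjusted p = 0.0583), in DESeq2, without a filter and without any 1 of the libraries of sort 1 or sort 3 (adjusted p up to 0.178). The part of these sperm transcripts in the differences of the oocyte and germline lists was not tested.

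Histone genes went the other way. Of 69 tested, 36 were lower and 3 higher (median -0.73). The linker histone gene his-24 had 456, 353 and 437 CPM in low animals, against 1070.4, 1629 and 1225 CPM in high animals, a difference of -1.64 ± 0.18 (SE, edgeR adjusted p = 2.43e-04), and the H3.3 variant gene his-72 had 496, 516 and 601 CPM in low animals, against 982, 1101 and 1331 CPM in high animals, a difference of -1.08 ± 0.10 (SE, edgeR adjusted p = 1.15e-04). High libraries were well above all low libraries in both genes, while the variant his-74 was higher (0.71). The number of decreases fell to 22 without either library of sort 3 and that of increases to 1 without either of sort 2, and many histone genes are near copies. DNA replication genes split evenly, with 9 higher and 9 lower of 37 (median -0.08). The licensing factor gene cdt-1 (-0.65) was lower and the GINS subunit gene psf-1 (0.72) was higher. Only 5 replication genes were lower without the block and 3 without either library of sort 1 or sort 2, and 5 were higher without either library of sort 2.

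Ribosomal protein genes were higher in low animals in 77 of 82 tested and lower in 2, with a modest median of 0.61. Their sum was 75548, 76523 and 71245 CPM in low animals, against 54388, 48215 and 45179 CPM in high animals. The large subunit gene rpl-3 had 2195, 2139 and 2114 CPM in low animals, against 1598, 1483 and 1285 CPM in high animals, a difference of 0.57 ± 0.11 (SE, edgeR adjusted p = 0.00387), and its fellow rpl-11.1 was higher by 0.91. The exception rpl-24.2 had 89.1, 76.6 and 85.1 CPM in low animals, against 140.2, 140.2 and 193 CPM in high animals, a difference of -0.90 ± 0.11 (SE, edgeR adjusted p = 4.25e-04). Mitochondrial ribosomal proteins (31 higher and 3 lower of 65, median 0.27), proteasome subunits (21 and 0 of 33, 0.30) and nuclear-encoded respiratory chain genes (17 and 3 of 51, 0.19) had smaller differences. The numbers of increases in these 3 lists fell to 12, 10 and 9 without high 2, and to 13, 12 and 9 without low 2. Decreases among respiratory chain genes numbered 1 without either of these libraries and 5 with library totals. The proteasome gene pas-2 (0.90), the complex I gene nduf-2.2 (0.89) and the ATP synthase gene atp-1 (0.60) were among the increases.

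The endoplasmic reticulum and the mitochondria differed in their chaperones, and in opposite directions. Of 17 genes of the unfolded protein response of the endoplasmic reticulum, 13 were lower and 1 was higher (median -0.52), or 0 higher without either library of sort 2. The transcription factor gene xbp-1 had 304, 231 and 284 CPM in low animals, against 724, 514 and 827 CPM in high animals, a difference of -1.32 ± 0.11 (SE, edgeR adjusted p = 7.20e-05). The calreticulin gene crt-1 had 1362, 1196 and 1358 CPM in low animals, against 2363, 2434 and 2791 CPM in high animals, a difference of -0.95 ± 0.12 (SE, edgeR adjusted p = 3.84e-04). Both had clearly separate groups, and the chaperone gene hsp-3 (-0.74) and the disulfide isomerase gene pdi-3 (-0.52) were lower as well. The paired chaperone gene hsp-4, which is the usual reporter of this response and is named here after its values were seen, had 328, 323 and 338 CPM in low animals, against 315, 309.7 and 325 CPM in high animals (log2 0.06, not called). Of 10 genes of the mitochondrial response, 5 were higher and 0 lower (median 0.33), or 3 without either library of sort 2. The mitochondrial chaperonin gene hsp-60 had 361, 381 and 364 CPM in low animals, against 153, 122.4 and 58.3 CPM in high animals, a difference of 1.83 ± 0.23 (SE, edgeR adjusted p = 4.66e-04), and hsp-6 was higher by 0.82. No low library overlapped a high one in these 2 genes, and the protease gene lonp-1 (0.15) was not called.

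Small heat shock proteins showed how much a sort could matter. Of 14 genes, 7 were lower and 2 higher (median -0.47), but only 1 was lower without the sort as a block. One of the 2 rows named hsp-16.48 had 25.98, 15.6 and 103.8 CPM in low animals, against 106, 68.1 and 253 CPM in high animals, a difference of -1.80 ± 0.16 (SE, edgeR adjusted p = 1.09e-04), and its adjusted p was 0.0979 without the block. Within each sort the low library was below the high library, but low animals of sort 3 were at the level of high animals of sort 1. The hsp-16.1 and hsp-16.48 rows come in near-identical pairs whose reads may not be told apart. The embryonic gene sip-1 was higher, with 2065, 2235 and 2255 CPM in low animals, against 1219, 1047 and 945 CPM in high animals, a difference of 1.04 ± 0.13 (SE, edgeR adjusted p = 4.28e-04).

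Genes of fat handling in the intestine were mostly higher in low animals. Of 7 fatty acid desaturases, 6 were higher and 0 lower (median 0.78). The stearoyl-CoA desaturase gene fat-7 had 29.7, 30.6 and 28.2 CPM in low animals, against 2.66, 6.45 and 1.05 CPM in high animals, a difference of 3.37 ± 0.40 (SE, edgeR adjusted p = 3.34e-04), and fat-2 had 716, 884 and 883 CPM in low animals, against 466, 609 and 411 CPM in high animals, a difference of 0.75 ± 0.13 (SE, edgeR adjusted p = 0.00182). The groups were separate in both genes, though fat-7 differed by far more. Among lipid binding proteins, 6 of 8 tested were higher, with lbp-7 at 2.24, and lbp-1 was the only decrease, with 127, 123.2 and 161 CPM in low animals, against 213, 352 and 369.6 CPM in high animals and a difference of -1.15 ± 0.14 (SE, edgeR adjusted p = 3.90e-04). Peroxisomal genes were higher in 12 and lower in 5 of 22 (median 0.48), led by the acyl-CoA oxidase gene acox-1.4 (3.49). The decreases fell to 2 without either library of sort 2 and to 3 without high 1. All 6 pud genes and all 8 dod genes tested were higher, with medians of 3.43 and 1.49. Both groups are known from insulin signalling mutants, and whether they reflect a common response here was not tested. pud-4 had 67.8, 65.5 and 70.8 CPM in low animals, against 10.2, 6.27 and 2.27 CPM in high animals, a difference of 3.61 ± 0.36 (SE, edgeR adjusted p = 1.68e-04), and dod-3 had 25.3, 18.4 and 12.3 CPM in low animals, against 4.02, 1.08 and 0.926 CPM in high animals, a difference of 3.38 ± 0.29 (SE, edgeR adjusted p = 8.50e-05). Low and high libraries were far apart in both. Of the dod genes, 5 were called in DESeq2 and without either library of sort 2. The pud-1 and pud-2 genes come in near-identical pairs, so how their reads were divided is uncertain.

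The insulin pathway itself showed little. Of 18 insulin signalling and longevity factor genes, 4 were higher and 4 lower (median -0.10). The kinase gene sgk-1 had 32.98, 31.4 and 33.8 CPM in low animals, against 15.4, 12.7 and 10.3 CPM in high animals, a difference of 1.38 ± 0.16 (SE, edgeR adjusted p = 2.81e-04), and the phosphatase gene daf-18 was higher by 0.71. The cofactor gene smk-1 was lower (-0.74), and 2 genes were lower without either library of sort 2. The receptor daf-2 had 273, 317 and 312 CPM in low animals, against 342, 334 and 280.2 CPM in high animals, and the transcription factor daf-16 had 136, 146 and 142 CPM in low animals, against 134, 127 and 106 CPM in high animals. These genes, named after their values were seen, had log2 differences of -0.08 and 0.21 and were not called.

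Detoxification and metal genes were mixed, with more increases than decreases. Cytochrome P450 genes were higher in 24 and lower in 10 of 57 tested (median 0.66). cyp-34A2 had 24.0, 20.9 and 23.8 CPM in low animals, against 2.25, 1.51 and 0.126 CPM in high animals, a difference of 4.34 ± 0.53 (SE, edgeR adjusted p = 4.00e-04), while cyp-35A3 had 1.10, 0.341 and 1.36 CPM in low animals, against 6.74, 4.58 and 6.69 CPM in high animals, a difference of -2.73 ± 0.31 (SE, edgeR adjusted p = 2.99e-04). Neither gene overlapped between the groups, and the exons of cyp-34A2 overlap another gene. The eggshell lipid gene cyp-31A2 was higher by 0.81. UDP-glucuronosyltransferases were higher in 27 and lower in 12 of 61 (median 0.64), with ugt-6 at 3.59 and ugt-29 at -2.01. Glutathione S-transferases were higher in 12 and lower in 6 of 37 (median 0.18), a set near the background for increases. Without either library of sort 2, 6 cytochrome and 3 transferase genes were lower, and 3 transferase genes were lower without either library of sort 3. Metal handling genes were higher in 13 and lower in 6 of 32, and the ferritin gene ftn-2 had 170.3, 196 and 193 CPM in low animals, against 105, 99.7 and 95.5 CPM in high animals, a difference of 0.90 ± 0.10 (SE, edgeR adjusted p = 2.22e-04). The heme-responsive gene hrg-7 (3.32) was higher, and hrg-6 (-2.003) and the zinc transporter gene zipt-7.2 (-0.94) were lower. Antioxidant enzymes were close to background, with 8 higher and 6 lower of 26, and ranged from -1.76 in the peroxidase gene gpx-3 to 1.51 in the catalase gene ctl-2.

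Called genes of the saposin and antimicrobial, C-type lectin, transthyretin-related, and MATH and BTB lists were more often higher than lower in low animals. Saposin-like and antimicrobial genes were higher in 34 and lower in 5 of 57 tested (median 1.17). spp-5 had 590.3, 612 and 713 CPM in low animals, against 212, 154 and 157 CPM in high animals, a difference of 1.88 ± 0.14 (SE, edgeR adjusted p = 5.23e-05), and spp-14 had 406, 498 and 384 CPM in low animals, against 114, 104.3 and 66.3 CPM in high animals, a difference of 2.21 ± 0.14 (SE, edgeR adjusted p = 3.16e-05). The groups were wide apart in both. Infection response genes of this list were found at both ends, since irg-4 was at 3.66 and irg-2 at -2.63. The decreases fell to 3 without either library of sort 2 or of sort 3. C-type lectins were higher in 52 and lower in 14 of 106 tested (median 0.81). The largest decrease was in a lectin gene of high counts, as clec-266 had 431, 298 and 516 CPM in low animals, against 1844, 2188 and 2882 CPM in high animals, a difference of -2.48 ± 0.16 (SE, edgeR adjusted p = 3.37e-05). The summed level of the lectins went the other way, with 5389, 5268 and 5521 CPM in low animals, against 6131, 5456 and 6768 CPM in high animals, and these sums overlapped. The lectin gene clec-87 overlapped between groups (-0.07, not called). Transthyretin-related genes were higher in 27 and lower in 4 of 51 (median 0.57), with ttr-41 at 2.87, and 7 were lower without either library of sort 1 and 2 without either of sort 2. MATH and BTB domain genes, adaptors of ubiquitin ligases, were higher in 35 and lower in 10 of 72 (median 0.77), with btb-16 at 2.74 and bath-10 at -1.96.

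F-box genes and nuclear hormone receptors were 2 large families that were more often lower than higher in low animals. F-box proteins choose targets for ubiquitin ligases, and of 267 tested in the fbxa, fbxb and fbxc groups 132 were lower and 43 higher (median -0.64). fbxc-40 had 32.9, 19.1 and 34.1 CPM in low animals, against 145, 122.7 and 180.0 CPM in high animals, a difference of -2.40 ± 0.12 (SE, edgeR adjusted p = 2.90e-05). fbxc-51 had 60.3, 43.8 and 64.9 CPM in low animals, against 162, 191 and 202 CPM in high animals, a difference of -1.73 ± 0.13 (SE, edgeR adjusted p = 5.90e-05). All high libraries lay well above all low libraries, whereas fbxa-215 was higher in low animals (1.01). The number of increases fell to 23 to 28 without 1 of the libraries of sort 2 or sort 3. Nuclear hormone receptors, ligand-regulated transcription factors, were lower in 72 and higher in 24 of 192 (median -0.36). The fat metabolism regulator nhr-49 had 140.2, 143 and 168 CPM in low animals, against 204, 194 and 263 CPM in high animals, a difference of -0.54 ± 0.09 (SE, edgeR adjusted p = 0.00126), and the groups did not overlap. The largest decrease was in nhr-174 (-3.02) and the largest increase in nhr-106 (2.29). The number of increases fell to 14 or 15 without 1 of the libraries of sort 2 or sort 3.

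**Figure D4:**
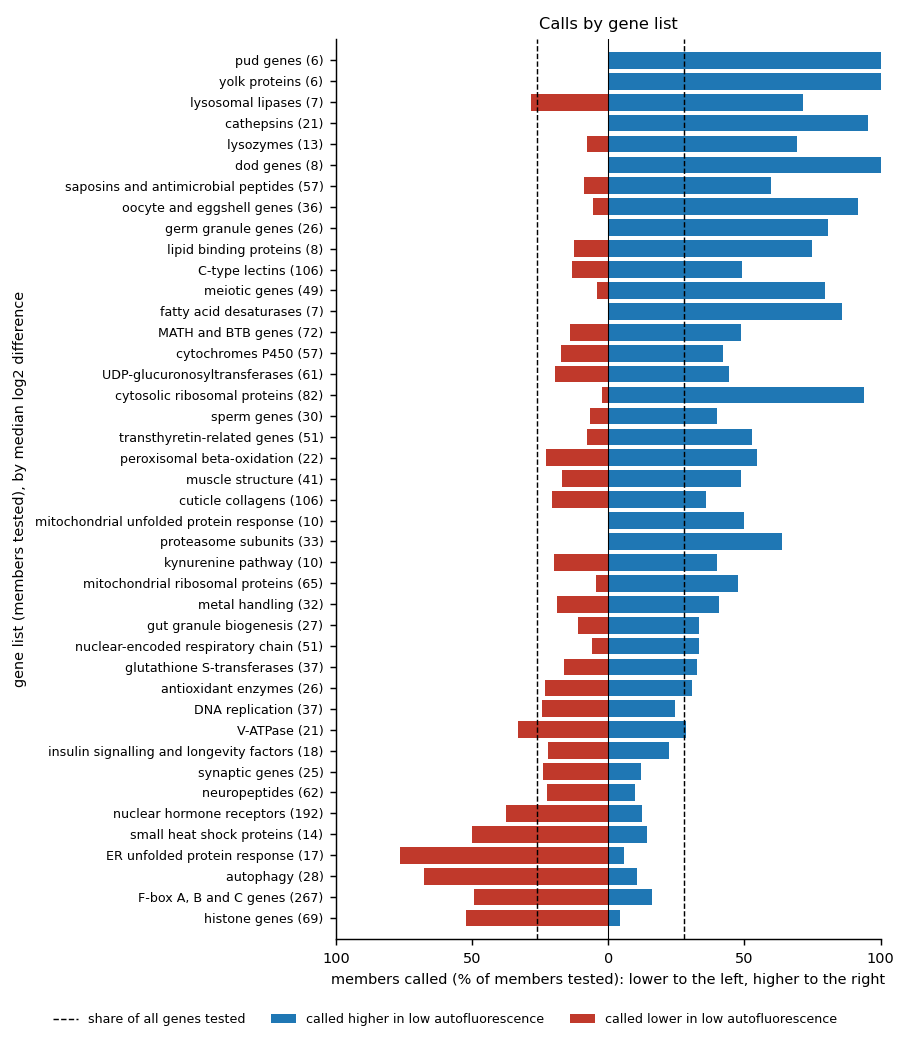
Share of the tested members of 42 gene lists that were called higher (right) or lower (left) in low against high animals, in percent of the number in brackets; dashed lines mark the share of all genes tested, 27.7% higher and 26.2% lower. Yolk, pud, dod, cathepsin and ribosomal lists reach furthest to the right, and the ER response, autophagy and histone lists furthest to the left.

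Marker genes of the tissues did not move together. Intestinal markers were higher in 5 and lower in 1 of 8 (median 1.01). The intestinal fate factor elt-2 had 10.8, 8.81 and 8.72 CPM in low animals, against 6.84, 4.58 and 2.69 CPM in high animals, a difference of 1.09 ± 0.24 (SE, edgeR adjusted p = 0.00633), and the esterase gene ges-1 was higher by 2.63. The brush border actin gene act-5 overlapped between groups (0.06, not called), and the metallothionein gene mtl-2 was lower (-0.67). Their summed level was 273, 240.3 and 254 CPM in low animals, against 255, 217 and 186 CPM in high animals, and these sums overlapped. The part of intestinal RNA in the lysosomal, saposin and lectin lists was not tested. Body wall muscle markers were higher in 5 of 6, or in 3 without the sort as a block, with the myosin gene unc-54 at 165, 143 and 85.2 CPM in low animals, against 36.1, 31.99 and 16.37 CPM in high animals, a difference of 2.24 ± 0.10 (SE, edgeR adjusted p = 2.74e-05). In the wider muscle list, 20 of 41 were higher and 7 lower, with the troponin gene unc-27 at 2.60 and the actin gene act-1 at -0.12 (not called). The summed level of this wider list went the other way, at 6602, 6572 and 6340 CPM in low animals. High animals had 6910, 7035 and 7004 CPM, without overlap. Pharyngeal myosin myo-2 (2.39) was higher, as were 2 of 3 coelomocyte markers (1 without the block), while sheath and spermatheca markers had 1 higher and 1 lower of 4.

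Neuronal and epidermal markers that were called were mostly lower. No neuronal marker was higher and 3 of 7 were lower (median -0.47), and unc-119 had 18.2, 18.9 and 21.7 CPM in low animals, against 38.9, 45.9 and 61.4 CPM in high animals, a difference of -1.29 ± 0.13 (SE, edgeR adjusted p = 1.42e-04). Synaptic genes (3 higher and 6 lower of 25) and neuropeptides (6 and 14 of 62) differed in smaller shares than all genes, and the neuropeptide gene flp-15 had 15.9, 14.2 and 15.3 CPM in low animals, against 43.9, 43.1 and 66.1 CPM in high animals, a difference of -1.73 ± 0.15 (SE, edgeR adjusted p = 9.01e-05). Neither flp-15 nor unc-119 overlapped between the groups. The neuropeptide decreases fell to 8 or 9 without 1 of the libraries of sort 2 or sort 3, and the increases to 3 without either of sort 2. Epidermal markers were lower in 3 and higher in 1 of 5 tested (median -1.62). The epidermal fate factor elt-1 had 20.8, 16.43 and 27.9 CPM in low animals, against 48.4, 71.6 and 80.3 CPM in high animals, a difference of -1.62 ± 0.17 (SE, edgeR adjusted p = 2.02e-04). The Hedgehog-related gene wrt-10 had 28.9, 25.7 and 40.9 CPM in low animals, against 103, 152 and 194 CPM in high animals, a difference of -2.21 ± 0.14 (SE, edgeR adjusted p = 3.37e-05). Both genes were separate between groups, and the adult collagen col-19 went the other way (3.60, not called without the block, adjusted p = 0.0839). Cuticle collagens split likewise, with 38 higher and 22 lower of 106 tested (median 0.40). col-122 had 339, 517 and 358 CPM in low animals, against 141, 54.5 and 20.9 CPM in high animals, a difference of 2.87 ± 0.47 (SE, edgeR adjusted p = 0.00151), while dpy-14 had 105, 49.7 and 114 CPM in low animals, against 344, 468 and 629 CPM in high animals, a difference of -2.46 ± 0.25 (SE, edgeR adjusted p = 1.69e-04). High libraries were all below low libraries in col-122 and all above them in dpy-14, and dpy-17 (-2.44) was much like dpy-14. The increases numbered 16 without the sort as a block and 14 in a fit of all 34 libraries.

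Whether autofluorescence marked a different set of genes from the GFP biomarkers was tested against the mean of 3 predicted long-over-short differences. These came from 3 strains whose GFP is under the promoter of mir-240/786, of mir-243 or of lin-4, and they share no library with the autofluorescence sorts, but strain and biomarker cannot be told apart. Of 14245 genes tested, 267 differed (1.87%), 48 with a higher (0.337%) and 219 with a lower (1.54%) autofluorescence difference. The call was fragile: 1 gene was called without the sorts as a block, and 0 genes when any 1 of the 4 autofluorescence libraries of sorts 2 and 3 was left out by the same edgeR test, against 2793 with an unadjusted p under 0.05 (19.6%) in the full fit and 1580 to 1870 in these reduced ones. Leaving out either autofluorescence library of sort 1 gave 114. Among GFP libraries, 600 genes were called without lin-4 high 2, 167 or 168 without either lin-4 library of sort 1, and 47 without either of sort 6. The count was 48 or 49 without a mir-240/786 library of sort 1 or 4, 52 without its high 3 and 22 without its low 3. It was 21 or 22 without a mir-243 library of sort 2, 166 without its low 3 and 111 without its low 4.

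The 10 genes with the smallest p, 5 in each direction, differed from the GFP strains in several ways. In gei-13 the long-over-short log2 difference was 0.79 for autofluorescence, and it was -1.51 in lin-4, -1.17 in mir-243 and -1.21 in mir-240/786 animals. The gap was 2.09 ± 0.33 (SE, edgeR adjusted p = 0.0226). By level, gei-13 had 2.44 to 5.58 CPM (median 2.65) in predicted long-lived animals, against 1.52 to 2.51 CPM (median 1.89) in predicted short-lived animals of the autofluorescence sorts, and 0.736 to 1.11 CPM (median 0.938) in predicted long-lived animals, against 1.92 to 3.44 CPM (median 2.701) in predicted short-lived animals of the lin-4 strain. Autofluorescence sorts went up in 3 of 3 and GFP sorts in 0 of 14. In chtb-1 the difference for autofluorescence was small (-0.39), while it was -3.27 in lin-4, -2.52 in mir-243 and -2.62 in mir-240/786 animals, a gap of 2.41 ± 0.42 (SE, edgeR adjusted p = 0.0226). The gene mxt-1 had a gap of 1.40 ± 0.25 (SE, edgeR adjusted p = 0.0226), memi-3, a gene of female meiosis, one of 0.57 ± 0.10 (SE, edgeR adjusted p = 0.0226), and ZK856.7 one of 1.12 ± 0.21 (SE, edgeR adjusted p = 0.0285). ZK856.7 differed by strain as well, with 42.6 to 88.4 CPM over the autofluorescence libraries and 26.5 to 161 CPM over those of the lin-4 strain, against 0.675 to 3.64 CPM over those of the mir-243 and mir-240/786 strains. Its difference was 0.92 for autofluorescence and 0.84 in lin-4 animals. Exons of these last 3 genes overlap another gene.

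The 5 genes with the lowest difference included cyd-1, the cyclin D of worms. Its difference was -2.34 for autofluorescence and -1.62 in lin-4, -0.88 in mir-243 and -1.50 in mir-240/786 animals, so it was lower in predicted long-lived animals for all 4 biomarkers and more so for autofluorescence, by -1.01 ± 0.17 (SE, edgeR adjusted p = 0.0226). The gene Y23H5B.1 had 6.47 to 10.9 CPM (median 9.20) in predicted long-lived animals, against 39.1 to 64.8 CPM (median 50.8) in predicted short-lived animals of the autofluorescence sorts, and its gap was -1.50 ± 0.21 (SE, edgeR adjusted p = 0.0218). It was lower in the lin-4 strain too, with 5.08 to 13.1 CPM in predicted long-lived animals, against 17.1 to 49.8 CPM in predicted short-lived animals. Its difference was -2.54 for autofluorescence, -1.82 in lin-4, -0.34 in mir-243 and -0.96 in mir-240/786 animals. The gap of the saposin gene spp-18 was -0.90 ± 0.15 (SE, edgeR adjusted p = 0.0226), and its difference was -0.81 for autofluorescence and 0.11 in lin-4, 0.27 in mir-243 and -0.10 in mir-240/786 animals. The gaps of sdz-33 and Y71F9AL.6 were -0.87 and -1.23. All 10 calls were lost when any 1 of the autofluorescence libraries of sort 2 or 3 was left out, with edgeR adjusted p between 0.099 and 0.235, and all but that of gei-13 were lost without the sorts as a block.

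**Figure D5:**
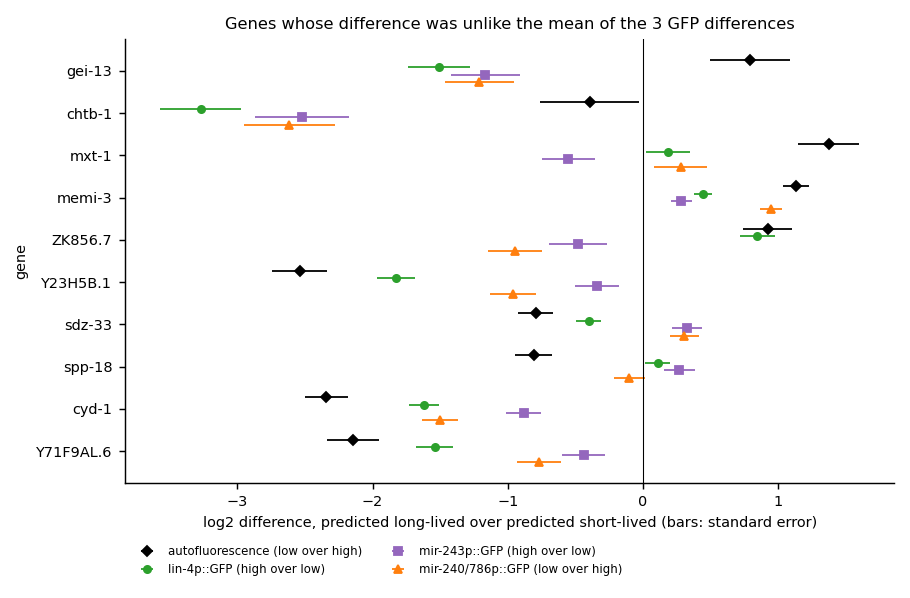
Log2 difference of predicted long-lived over predicted short-lived animals, with its standard error as a bar, for the 10 genes with the smallest p, in the autofluorescence sorts (black) and in the 3 GFP strains. The black point is to the right of the mean of the GFP points in the upper 5 genes and to the left in the lower 5.

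F-box genes made up 36 of the 219 genes with a lower difference, out of 261 F-box genes tested, beside 1.54% of all genes. Their median log2 difference was -0.64 for autofluorescence, -0.42 in lin-4, 0.04 in mir-243 and -0.04 in mir-240/786 animals. By summed level they had 1984 to 2233 CPM in predicted long-lived animals, against 2974 to 3677 CPM in predicted short-lived animals of the autofluorescence sorts. The sums did not overlap in the mir-240/786 strain either, with 2680.1 to 3224 CPM in predicted long-lived animals, against 3400.04 to 4168 CPM in predicted short-lived animals. They overlapped in the lin-4 strain, with 1864 to 2497 CPM in predicted long-lived animals, against 2258 to 3652 CPM in predicted short-lived animals. They overlapped in the mir-243 strain too, with 2500.1 to 3152 CPM in predicted long-lived animals, against 2744 to 3102 CPM in predicted short-lived animals. The summed level was thus lower in predicted long-lived animals by the median in all 3 GFP strains as well. MATH and BTB genes gave 6 lower differences of 71 tested and autophagy genes 3 of 28. None of these calls, F-box genes included, was made without the block or when any 1 of the autofluorescence libraries of sort 2 or 3 was left out.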

How the data were processed

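RNA of whole pooled animals was sequenced, and 1 table of counts per gene for all 34 libraries was used. The authors deposited raw counts, not normalised, and the submitters' processing notes name STAR 2.7.3a, featureCounts and the WBcel235 build. Strand setting and the handling of shared reads are not given in the sources used here. Of 20223 features, 1 is the gfp row, which was counted in library sizes but left out of the tests. Symbols came from the names table for 19708 features, and 20052 were in the annotation (Ensembl, WBcel235).

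Genes that reached 5 counts in 5 or more of the 6 autofluorescence libraries (75%) were kept, given TMM factors and tested with the quasi-likelihood test of edgeR 4.0.16 (R 4.3.3) with the terms sort and level. P-values were adjusted by Benjamini-Hochberg over all genes tested, and log2 differences are those of the edgeR fit at its default settings. A prior count of 2 was used only in log2 CPM, from which the direction in each sort and the deviations below were taken. The second test used all 34 libraries with 17 sorts as a block and at least 5 counts in 26 libraries. The sort numbers in the sample titles were taken to pair the libraries. Deviations from the group means correlated at 0.109, 0.177 and 0.216 within sorts 1, 2 and 3, and at -0.199 to 0.054 between sorts. These correlations are small and do not establish the pairing. Nothing beyond the separate sorts says how independent the libraries are. With the sort as a block, p-values measure how much the difference within a sort varied between sorts. They do not measure the spread of libraries within a group. No 2 libraries agreed within sampling noise. A count of 3 was taken as the floor of detection, and it covers counting error only.

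Alternatives were DESeq2 1.42.0, its size factors, library totals, other filters, no block, all libraries and each library left out. The tests were tried on simulated data with 200 changed genes. The genes named were the 10 largest differences each way under the criteria given with them, the 3 most abundant tested members and the largest called difference each way of a list, all members of 4 short lists, tissue markers, and the 5 smallest p each way in the second test. Exceptions are said to be chosen after their values were seen. Members, lists and tests were chosen with earlier results of these data known.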

Additional observations from a re-analysis of the deposited data

Results flagged for a closer look

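The gfp row held 16, 10 and 8 counts in low animals, against 1, 1 and 0 counts in high animals, although these animals carry no reporter. The source of these counts was not tested.

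The long-over-short difference of 267 genes was unlike the mean of the 3 GFP differences by a test of the gap itself (edgeR, adjusted p under 0.05). Among the genes named, the gap was 2.41 in chtb-1, 2.09 in gei-13, 1.40 in mxt-1, 1.12 in ZK856.7 and 0.57 in memi-3 on the log2 scale. It was -1.50 in Y23H5B.1, -1.23 in Y71F9AL.6, -1.01 in cyd-1, -0.90 in spp-18 and -0.87 in sdz-33. Strain and biomarker cannot be told apart in these gaps.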

How the results depend on the processing

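The count of genes that differed between low and high animals was 7943, and it was 7957 with DESeq2's size factors, 7924 with library totals, 8142 without a filter on low counts, 7963 with a filter over all 34 libraries, 7197 with DESeq2 and 7765 in a fit of all 34 libraries. Scaling by library totals gave 3786 higher and 4138 lower. Leaving out 1 library gave 5381 to 7589, and an adjusted p under 0.0001 gave 555. Without the replicate block the count was 7729. For the comparison with the GFP strains (267 genes) the values were 341 with DESeq2's size factors, 257 with library totals, 281 without a filter, 1 without the replicate block and 0 at an adjusted p under 0.0001, and 0 to 600 when 1 library was left out (2793 genes had an unadjusted p under 0.05). The cause was not tested. Alternatives were followed gene by gene for 245 genes, picked by size of difference, by abundance in a list or as members of the short lists. Not all of these 245 are named above, and tissue markers in no list, such as col-19, are not among them. Of the 245, no gene called in the main fit changed direction under any alternative run. Changes of direction were not counted for those without a call. Of those called, 13 lost their call without the block, 9 with DESeq2 and 11 to 27 when 1 library was left out. Apart from these 13 genes, dropping the block changed no other call among the 245. Depth limits genes near the floor of 3 counts, 0.127 to 0.183 CPM, such as lipl-4 in high animals.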

Other observations

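Other gene groups were looked at after the data had been seen, and their counts are descriptions. Cuticlin genes, which form the ridges and lining of the cuticle, were lower in 18 and higher in 0 of 32 tested (median -1.01), and they summed to 161, 99.5 and 169 CPM in low animals, against 642, 648 and 906 CPM in high animals. All high libraries were far above all low libraries. Homeobox genes, regulators of cell identity, were lower in 39 and higher in 6 of 75 (median -0.61). Hedgehog-related and patched-related genes were lower in 22 and higher in 11 of 57 (median -0.58). The summed level of these Hedgehog-related and patched-related genes went the other way, at 1367, 1497 and 1476 CPM in low animals. High animals had 1298, 1393 and 1268 CPM, and these sums overlapped.

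Insulin-like peptide genes were lower in 12 and higher in 2 of 28 (median -0.57), or lower in 7 without either library of sort 2. Tubulin genes were lower in 5 and higher in 3 of 15 (median -0.23), or 1 higher without either library of sort 2. These are 33.3% lower and 20% higher, beside 26.2% and 27.7% of all genes. T-box and GATA factors were lower in 9 (36%) and higher in 4 (16%) of 25, with a median of -0.04. Increases among Hedgehog-related and patched-related genes fell to 6 or 7 without 1 of the libraries of sort 2 or sort 3.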
